A study of Homo sapiens with 9 samples.

Results

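Collagens and the glycoproteins and proteoglycans that bind them were followed across the arrays of a human breast cancer cell line treated with a decoy peptide of the transcriptional corepressor SIN3. The group holds every gene symbol of the form COL, number, A, number, and SPARC, FN1, TNC, POSTN, THBS1, THBS2, FBN1, FBN2, VCAN, LUM, DCN, BGN, ABI3BP and EDIL3, each read on its probe with the highest mean signal among probes that name a single gene. This gave 57 genes, 43 collagens and 14 others, of 18417 genes with a tested probe. The rule used gene names, but the members were chosen with earlier results of these data known.

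The cells were MDA-MB-231, an established triple negative line, in 3 groups of 3 arrays. SID cells received 2.5 μM of a peptide that carries the SIN3 interaction domain, fused to a sequence for entry into cells, and SCR cells received the scrambled control peptide. UT cells were left untreated, and 24 h is the labelled time for all 9 samples. All groups are the same line in bulk culture, so results apply to it alone, and fewer cells with a transcript and less transcript per cell cannot be told apart.

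Collagens are trimers wound from chains of the same or of different genes, and they form fibrils, sheets or beaded filaments outside the cell. Fibronectin and the fibrillins are the scaffold on which much of this matrix is laid down, while matricellular proteins such as SPARC, tenascin C and the thrombospondins sit in the matrix and mainly alter how cells hold on to it. In breast tumors most fibrillar collagen is made by fibroblasts of the stroma, and carcinoma lines of mesenchymal character make part of the set themselves.

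Over all tested probes the arrays fell into 2 sets. SID and SCR replicates 1 and 2 correlated at 0.963 to 0.995 with each other across the tested probes, the other 5 arrays (replicate 3 of SID and SCR and the UT arrays) at 0.992 to 0.997, and arrays of different sets at 0.908 to 0.929. The first principal component held 78.5% of the variance and separated these sets. In headers of the study's supplement the replicate 3 arrays carry a prefix that the others lack, and SCR replicate 3 is headed with a longer treatment than its label gives. Each result is therefore given per replicate, and with and without replicate 3, and the source of the split was not tested. MDA-MB-231 markers were at a mean of 12.8 to 12.9 on the log2 scale on SID arrays, 12.8 to 13.4 on SCR arrays and 12.6 to 12.7 on UT arrays (VIM, CD44, KRT8 and KRT18). ESR1, PGR and ERBB2, listed as low in this line, averaged 7.31 to 7.37 on SID arrays, 7.33 to 7.53 on SCR arrays and 7.28 to 7.42 on UT arrays. Of these, ERBB2 stood above the others, at 9.15 to 9.64 over the 9 arrays. Fibroblast markers averaged 6.93 to 7.14 on SID arrays, 6.85 to 6.93 on SCR arrays and 6.85 to 6.88 on UT arrays (PDGFRA, PDGFRB, FAP, THY1 and ACTA2). Immune and endothelial markers averaged 7.11 to 7.36 on SID arrays, 7.19 to 7.94 on SCR arrays and 7.12 to 7.31 on UT arrays. This mean hides higher members, as CD68 ran from 9.99 to 12.98 and CDH5 from 7.01 to 10.20 over the 9 arrays. Among the markers of other cells ACTA2, smooth muscle actin, rose by 1.51 with SID over SCR in replicates 1 and 2 alone (limma adjusted p = 0.016). CDH5, an endothelial cadherin, fell by 2.67 with SID in the same fit (adjusted p = 0.0217). Some markers also followed the split between the sets. On replicates 1 and 2 of the peptides CD44 was higher than on the other 5 arrays by 2.47. CD68, a macrophage marker also found in tumor lines, was higher by 2.43 and PECAM1 by 1.32. CDH5 averaged 1.18 lower there, but only SID replicates 1 and 2 were low (7.01 and 7.16). Its SCR replicates 1 and 2 were at 9.30 and 10.20. The part of these markers in the matrix results was not tested.

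The promoters of 4 members are shown because their signals separated the arrays most clearly: SPARC, ABI3BP and EDIL3 between the peptides, and FBN2 between the sets of arrays. Each runs 250 bases upstream to 50 bases past the annotated start in RefSeq (GRCh38.p14), 5′ to 3′ on the minus strand, on which all 4 genes lie. SPARC is at chr5:151686866-151687165, ABI3BP at chr3:100993372-100993671, EDIL3 at chr5:84384831-84385130 and FBN2 at chr5:128538196-128538495. Capitals mark matches to 5 motifs searched on both strands, namely the E-box CACGTG bound by the MAX network to which the source protein of the SID peptide belongs, TGTCA of TGIF proteins, which also bind SIN3, the TCF/LEF letters CTTTGAA or CTTTGAT or CTTTGTA or CTTTGTT, the AP-1 site TGACTCA, and TATAAA of the TATA box.
SPARC: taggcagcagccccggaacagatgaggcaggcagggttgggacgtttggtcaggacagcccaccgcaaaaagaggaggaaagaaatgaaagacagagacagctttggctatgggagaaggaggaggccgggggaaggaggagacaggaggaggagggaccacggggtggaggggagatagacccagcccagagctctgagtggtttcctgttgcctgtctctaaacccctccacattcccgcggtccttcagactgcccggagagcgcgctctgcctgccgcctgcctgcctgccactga
ABI3BP: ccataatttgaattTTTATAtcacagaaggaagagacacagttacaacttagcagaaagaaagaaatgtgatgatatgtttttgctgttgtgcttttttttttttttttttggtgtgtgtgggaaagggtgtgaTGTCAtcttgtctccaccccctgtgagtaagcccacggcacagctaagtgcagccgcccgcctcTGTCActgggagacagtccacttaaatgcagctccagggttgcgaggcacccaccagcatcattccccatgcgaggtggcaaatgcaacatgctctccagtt
EDIL3: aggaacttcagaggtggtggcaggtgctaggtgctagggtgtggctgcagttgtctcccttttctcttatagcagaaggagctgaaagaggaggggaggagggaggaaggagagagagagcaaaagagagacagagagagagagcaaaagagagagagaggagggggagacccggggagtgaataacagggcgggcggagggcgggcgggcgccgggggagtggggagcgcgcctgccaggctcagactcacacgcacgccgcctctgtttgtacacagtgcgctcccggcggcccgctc
FBN2: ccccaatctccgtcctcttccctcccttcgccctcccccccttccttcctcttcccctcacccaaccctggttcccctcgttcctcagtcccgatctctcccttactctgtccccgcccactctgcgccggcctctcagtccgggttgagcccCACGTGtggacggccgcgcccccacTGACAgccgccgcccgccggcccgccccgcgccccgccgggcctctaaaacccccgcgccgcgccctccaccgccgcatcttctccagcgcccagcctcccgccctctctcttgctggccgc
The ABI3BP promoter held TGTCA at −116 and at −52 from the start and TATAAA at −236 on the opposite strand, printed as TTTATA. FBN2 held CACGTG at −97 and TGTCA at −72 on the opposite strand, printed as TGACA, and none of these matches overlapped another. SPARC and EDIL3 had no match, which says only that these letters are not in the window. Of 35116 promoters of this length, 7.26% held CACGTG, 38.9% TGTCA, 13.8% a TCF/LEF sequence, 4.95% TGACTCA and 11.5% TATAAA. Among the 43 members with a promoter in the table the numbers were 1, 16, 5, 1 and 7, and their median GC content was 66.0%, against 58.7% over all promoters.

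SPARC, ABI3BP and EDIL3 were the members that differed most between the peptides. With SID, SPARC was about 3 to 4 log2 units below SCR and ABI3BP about 2 to 3 above it in replicates 1 and 2, and EDIL3 was above it by 1.39 and 1.84, while none of these differences was seen in replicate 3. On the 3-replicate means 2 members were past a log2 difference of 1 upward (0.545% of all tested probes were) and 1 downward (1.07%). In replicate 1 the numbers were 2 upward (2.09%) and 1 downward (2.44%), in replicate 2 they were 2 (2.49%) and 3 (5.12%), and in replicate 3 they were 0 (0%) and 0 (0.293%). A call required both an adjusted p under 0.05 from limma and a log2 difference past 1. On the 9 arrays it was met by 0 members (0% of 19460 probes), and 2, SPARC and EDIL3, had an unadjusted p under 0.05 (7.57% of probes). The methods' t-test gave 0 members at an unadjusted p under 0.05, and 378 probes, of which 0 remained after adjustment. In replicates 1 and 2 alone, 2 members rose (1.77% of probes) and 1 fell (2.64%). With array weights, which count each array by how closely it follows its group, the same 3 members were called, 2 higher (1.66%) and 1 lower (2.25%).

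SPARC, a collagen-binding glycoprotein that assists the handling of fibrillar and basement membrane collagen, had log2 signals of 6.97, 7.12 and 7.57 on SID arrays, 10.35, 11.12 and 7.56 on SCR arrays, and 7.98, 7.77 and 8.05 on UT arrays. SCR replicates 1 and 2 were the only arrays above 9, and the 3 SID arrays all lay below the 3 UT arrays. The SID minus SCR difference was −3.38, −4.00 and 0.01 in replicates 1, 2 and 3. Its mean was −2.46 (SE 0.80, limma adjusted p = 0.657). In replicates 1 and 2 alone SPARC fell by 3.69 with SID (SE 0.28, adjusted p = 0.0161). The difference from UT averaged −0.71 for SID (adjusted p = 0.662) and 1.75 for SCR (adjusted p = 0.357), so the mean of SID lay nearer to UT than that of SCR did. Without SCR replicate 3, SPARC was the member called lower (0.822% of all probes were) for SID against SCR, at −3.52 (adjusted p = 0.00343), and SCR minus UT was 2.81 (adjusted p = 0.00328). That fit kept SID replicate 3, so the split between array sets enters its SID minus SCR difference.

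ABI3BP, a glycoprotein of the extracellular matrix, gave 8.95, 9.87 and 6.11 on SID arrays, 7.00, 6.86 and 6.03 on SCR arrays, and 6.04, 6.25 and 6.21 on UT arrays. SID replicates 1 and 2 stood above every other array, SCR replicates 1 and 2 came next, and the remaining 5 arrays lay together. The difference between the peptides was 1.95, 3.02 and 0.08 in the 3 replicates, with a mean of 1.68 (SE 0.86, adjusted p = 0.685). In replicates 1 and 2 alone ABI3BP rose with SID by 2.48 (SE 0.32, adjusted p = 0.0239). Without SID replicate 3 it rose by 2.78 over SCR (adjusted p = 0.00767) and by 3.25 over UT (adjusted p = 0.00478). In that fit of SID against SCR it was the 1 member called higher (1.43% of all probes), and 0 were called lower (1.9%). As SCR replicate 3 stayed in that fit, the split between array sets enters the difference of 2.78. Against UT the mean over 3 replicates was 2.15 higher with SID (adjusted p = 0.388) and 0.46 higher with SCR.

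EDIL3, a secreted integrin ligand, measured 12.74, 12.88 and 12.89 on SID arrays, 11.36, 11.04 and 12.97 on SCR arrays, and 13.24, 13.13 and 13.14 on UT arrays. All 3 SID arrays lay close together and just below UT, and only SCR replicates 1 and 2 were low. SID minus SCR was 1.39, 1.84 and −0.08, with a mean of 1.05 (SE 0.44, adjusted p = 0.657). In replicates 1 and 2 alone EDIL3 rose by 1.61 with SID (SE 0.14, adjusted p = 0.0165), and without SCR replicate 3 by 1.64 (adjusted p = 0.0023), the 1 member called higher there (0.324% of all probes). The latter fit held SID replicate 3 but not SCR replicate 3, so it mixes array set with peptide. As for SPARC, SCR replicates 1 and 2 were the arrays far from UT: SCR minus UT averaged −1.38 and was −1.97 without SCR replicate 3 (adjusted p = 0.00102).

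**Figure D1:**
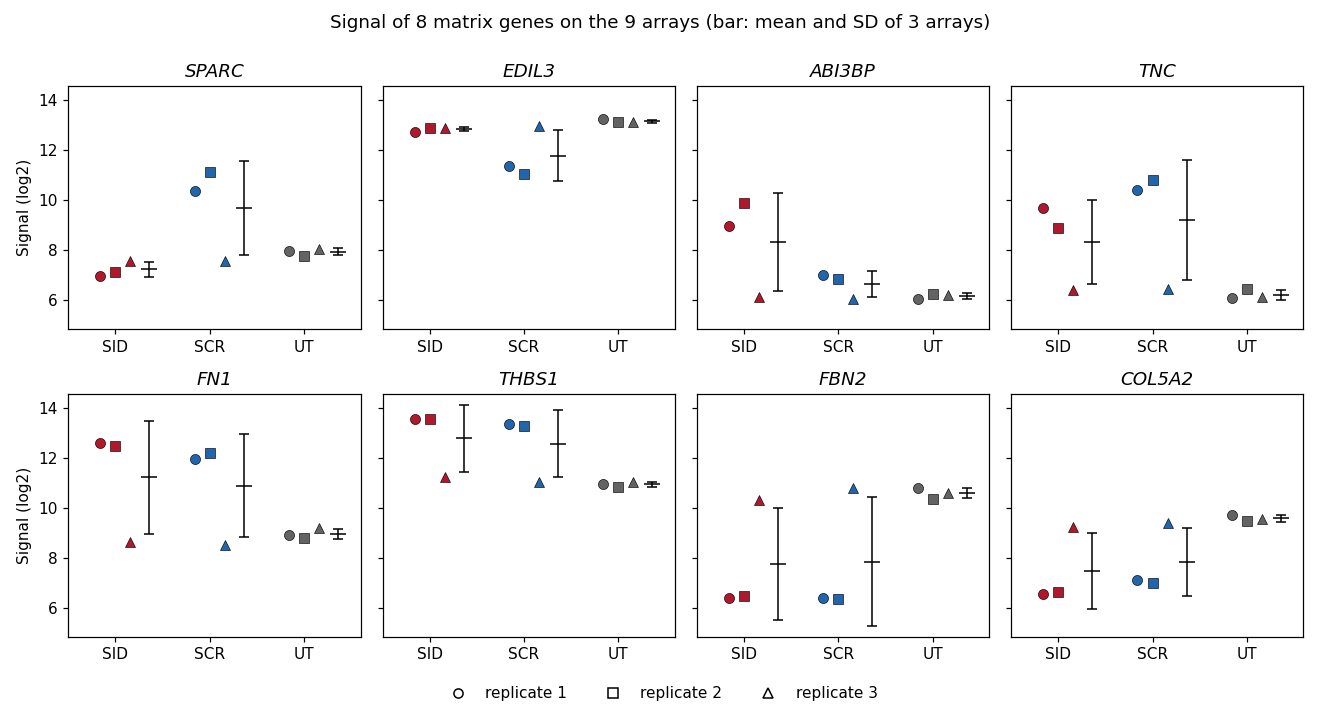
Log2 signal of 8 members on each array, with SID, SCR and UT from left to right, markers for replicates, and the mean with SD of the 3 arrays beside each group. SPARC is high and EDIL3 low on SCR replicates 1 and 2 only, ABI3BP is highest on SID replicates 1 and 2, and FN1, THBS1, TNC, FBN2 and COL5A2 split replicates 1 and 2 of both peptides from replicate 3 and UT.

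The plot of 8 members by array shows that the groups overlapped for each of them on the 3 SID and 3 SCR arrays. It also shows the wide spread within a peptide group, where the SD of TNC was 1.70 with SID and 2.40 with SCR, against 0.20 in UT.

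TNC, the hexameric glycoprotein tenascin C of remodelled stroma, had signals of 9.67, 8.87 and 6.41 on SID arrays, 10.39, 10.79 and 6.45 on SCR arrays, and 6.06, 6.43 and 6.11 on UT arrays. Replicates 1 and 2 of both peptides were far above UT, and in each of them SCR was the higher. SID minus SCR was −0.73, −1.92 and −0.05, and in replicates 1 and 2 alone −1.33 (SE 0.31, adjusted p = 0.0636), which did not pass. Without SCR replicate 3, TNC rose with SCR over UT by 4.39 (adjusted p = 0.0245). Its SID minus UT difference was 3.06 without SID replicate 3, which was not called.

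THBS1, thrombospondin 1, which regulates adhesion and latent TGF-beta, measured 13.56, 13.57 and 11.24 on SID arrays, 13.38, 13.29 and 11.02 on SCR arrays, and 10.97, 10.83 and 11.04 on UT arrays. SID exceeded SCR by 0.17, 0.28 and 0.23 in the replicates, and replicates 1 and 2 of both were the 4 highest arrays. SID minus UT averaged 1.84 and was 2.62 without SID replicate 3 (adjusted p = 0.0351). For THBS1, SCR minus UT was 2.39 without SCR replicate 3, which was not called. Its paralog THBS2 ran from 6.89 to 8.08 over all arrays, and POSTN, periostin, from 4.98 to 5.19.

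Of fibronectin and the fibrillins, FN1 was high and FBN1 and FBN2 were low in replicates 1 and 2 of both peptides. FN1, fibronectin, had signals of 12.59, 12.47 and 8.62 on SID arrays, 11.98, 12.18 and 8.51 on SCR arrays, and 8.93, 8.78 and 9.18 on UT arrays. Replicates 1 and 2 of both peptides were the 4 high arrays, and the peptides differed by 0.45 in replicates 1 and 2 alone (SE 0.11, adjusted p = 0.0712). Without SID replicate 3, FN1 rose with SID over UT by 3.57 (adjusted p = 0.0482). Its SCR minus UT difference was 3.12 without SCR replicate 3, which was not called.

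FBN2, the fibrillin of developing elastic tissue, showed the widest opposite split, at 6.40, 6.48 and 10.32 on SID arrays, 6.39, 6.33 and 10.82 on SCR arrays, and 10.79, 10.37 and 10.61 on UT arrays. Its signal on the 4 low arrays was nearly the same with either peptide (SID minus SCR 0.08 in replicates 1 and 2 alone, adjusted p = 0.605). FBN1, the main fibrillin of adult microfibrils, gave 8.13, 7.69 and 9.61 on SID arrays, 8.81, 8.74 and 9.68 on SCR arrays, and 9.72, 9.36 and 9.74 on UT arrays. Here SID was below SCR in every replicate, by 0.69, 1.05 and 0.06, with −0.87 in replicates 1 and 2 alone (SE 0.17, adjusted p = 0.0438), past the adjusted p but short of the fold limit. Without SID replicate 3, FBN1 fell by 1.70 with SID against UT (adjusted p = 0.0141). Its SCR minus UT difference was −0.83 without SCR replicate 3, which was not called.

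Of the 4 proteoglycans, LUM had the widest range. LUM, lumican, which spaces collagen fibrils, measured 5.70, 5.88 and 6.96 on SID arrays, 5.04, 5.42 and 6.70 on SCR arrays, and 6.88, 6.67 and 7.14 on UT arrays. SID exceeded SCR in all 3 replicates, by 0.46 on average (SE 0.48, adjusted p = 0.867). Without SCR replicate 3, LUM fell by 1.66 with SCR against UT (adjusted p = 0.0362). Its SID minus UT difference was −1.10 without SID replicate 3, which was not called. DCN, decorin, ran from 5.40 to 6.24, BGN, biglycan, from 7.75 to 8.10, and VCAN, versican, from 5.29 to 5.57 over the 9 arrays.

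Between the peptides 37 of 43 collagens (86%) lay within 0.5 in every replicate, as did 6 of the 14 other members (42.9%) and 13621 of all 19460 probes (70%). The mean difference was above 0 for 32 collagens (74.4%, against 55.2% of all probes) and below it for 11. The sizes were small, with a median of 0.04 over the collagens and 0.02 over all tested probes. In replicates 1, 2 and 3 the median collagen differed by −0.0065, 0.14 and −0.08, so the sign was not the same from replicate to replicate. On the 3-replicate mean the collagen with the largest difference was COL12A1.

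**Figure D2:**
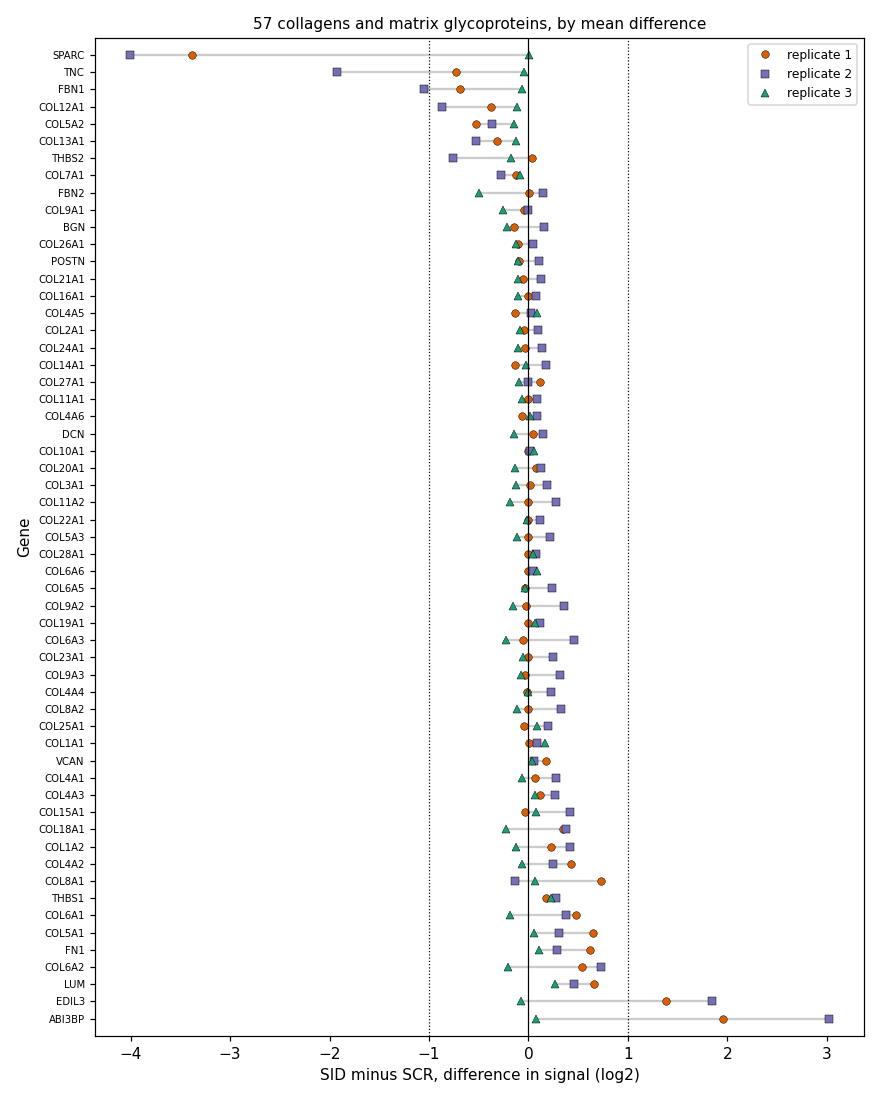
SID minus SCR difference in log2 signal (horizontal) of each of the 57 members (vertical, ordered by the mean), with 1 marker per replicate and dotted lines at a difference of 1. SPARC, at −3.38 and −4.00 in replicates 1 and 2, and ABI3BP, at 1.95 and 3.02, lie at the ends, and all replicate 3 markers lie within 0.5 of 0.

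COL12A1, which encodes a fibril-associated collagen that links fibrils to the surrounding matrix, had signals of 10.67, 10.38 and 11.29 on SID arrays, 11.05, 11.25 and 11.40 on SCR arrays, and 11.53, 11.25 and 11.37 on UT arrays. SID replicates 1 and 2 were the 2 lowest arrays. SID minus SCR averaged −0.45 (SE 0.22, adjusted p = 0.683) and was −0.62 in replicates 1 and 2 alone (adjusted p = 0.0607). Of the 10 fibril-associated collagens, 7 had a range under 0.5 over the 9 arrays.

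The fibrillar collagens COL5A1 and COL5A2 encode chains of one molecule, type V collagen, which nucleates fibrils, and both were lower on replicates 1 and 2 of the peptides than on the other 5 arrays, by 0.54 for COL5A1 and 2.64 for COL5A2. COL5A2 measured 6.56, 6.64 and 9.24 on SID arrays, 7.09, 7.01 and 9.38 on SCR arrays, and 9.71, 9.45 and 9.56 on UT arrays. Its low arrays were replicates 1 and 2 of both peptides, with SID the lower in both, by 0.45 (SE 0.09, adjusted p = 0.0435), short of the fold limit. COL5A1 measured 9.35, 9.21 and 9.66 on SID arrays, 8.70, 8.90 and 9.61 on SCR arrays, and 9.57, 9.43 and 9.60 on UT arrays. For this chain SID was the higher in each replicate, by 0.34 on average (SE 0.23, adjusted p = 0.758). Without SID replicate 3, COL5A2 fell by 2.98 with SID against UT (adjusted p = 0.0252). Its SCR minus UT difference was −2.53 without SCR replicate 3, which was not called.

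COL1A1 and COL1A2, the chains of type I collagen, and COL3A1, that of type III, differed little between the peptides. COL1A1 measured 8.73, 8.74 and 9.29 on SID arrays, 8.73, 8.66 and 9.12 on SCR arrays, and 9.18, 9.11 and 9.24 on UT arrays, so replicates 1 and 2 of both peptides were its 4 lowest arrays. COL1A2 ran from 7.27 to 7.87 over all arrays and COL3A1 from 7.27 to 7.61. COL3A1 lies next to COL5A2 on chromosome 2, and the difference between the 4 arrays of replicates 1 and 2 and the other 5 was −0.01 for COL3A1 and −2.64 for COL5A2.

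Type VI collagen, the beaded filament around cells, is built from chains of COL6A1, COL6A2 and COL6A3, and each had its highest arrays among replicates 1 and 2 of the peptides. COL6A1 gave 9.91, 10.06 and 8.49 on SID arrays, 9.43, 9.68 and 8.67 on SCR arrays, and 8.48, 8.82 and 8.45 on UT arrays. COL6A2, its neighbor on chromosome 21, gave 9.73, 9.79 and 8.85 on SID arrays, 9.19, 9.05 and 9.06 on SCR arrays, and 8.81, 9.05 and 8.78 on UT arrays. For COL6A2 only SID replicates 1 and 2 stood out, and in these replicates alone SID exceeded SCR by 0.64 (SE 0.09, adjusted p = 0.0274), past the adjusted p but short of the fold limit. COL6A3, the third chain of the classical trimer, gave 7.22, 7.38 and 6.24 on SID arrays, 7.27, 6.92 and 6.47 on SCR arrays, and 6.16, 6.43 and 6.44 on UT arrays. Like COL6A1 it was high on replicates 1 and 2 of both peptides, and the peptides differed by 0.06 on average (SE 0.32, adjusted p = 0.996). Without SID replicate 3, COL6A1 rose with SID over UT by 1.40 (adjusted p = 0.0195). Its SCR minus UT difference was 0.97 without SCR replicate 3, which was not called. COL6A5 and COL6A6, the alternative chains, had ranges of 0.23 and 0.14.

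Of the basement membrane collagens, COL4A1 and COL4A2 form the common type IV trimer and share a bidirectional promoter region on chromosome 13. COL4A1 measured 8.59, 8.78 and 8.72 on SID arrays, 8.53, 8.50 and 8.78 on SCR arrays, and 9.29, 9.05 and 8.98 on UT arrays. All 6 peptide arrays were below the 3 UT arrays, replicate 3 included. The differences were −0.41 for SID minus UT (adjusted p = 0.388) and −0.50 for SCR minus UT, and did not pass. COL4A2 measured 9.49, 9.62 and 9.34 on SID arrays, 9.06, 9.37 and 9.41 on SCR arrays, and 9.80, 9.56 and 9.54 on UT arrays, and its SID and UT arrays overlapped. COL4A5, on the X chromosome, was lower by 1.16 on replicates 1 and 2 of the peptides than on the other 5 arrays, and its neighbor COL4A6 by 0.19.

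COL15A1, which encodes a collagen of the basement membrane zone that carries heparan or chondroitin sulfate chains, gave 7.50, 7.77 and 9.78 on SID arrays, 7.54, 7.35 and 9.71 on SCR arrays, and 10.29, 10.06 and 10.23 on UT arrays. All peptide arrays lay below UT, replicate 3 by 0.41 with SID. The peptides overlapped, with SID minus SCR at 0.15 (SE 0.76, adjusted p = 0.995). Without SCR replicate 3, COL15A1 fell by 2.74 with SCR against UT (adjusted p = 0.0377), and without SID replicate 3 it fell by 2.55 with SID against UT (adjusted p = 0.0357). COL8A1, of the sheet-like type VIII collagen, had 7.84, 7.21 and 6.25 on SID arrays, 7.11, 7.35 and 6.19 on SCR arrays, and 6.17, 6.07 and 6.41 on UT arrays. Without SID replicate 3 it rose with SID over UT by 1.31 (adjusted p = 0.0415). Its SCR minus UT difference was 1.01 without SCR replicate 3, which was not called. COL8A1, COL4A5, THBS2, COL1A1, COL1A2, COL3A1 and the markers ACTA2, CDH5, CD68 and PECAM1 were picked after their values were seen.

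COL13A1, a transmembrane collagen of adhesion sites, measured 8.72, 8.70 and 8.09 on SID arrays, 9.04, 9.23 and 8.21 on SCR arrays, and 7.73, 8.05 and 7.99 on UT arrays. SCR was the higher peptide in each replicate, and SID minus SCR averaged −0.33 (SE 0.29, adjusted p = 0.825). Without SCR replicate 3, COL13A1 rose with SCR over UT by 1.21 (adjusted p = 0.0179). Its SID minus UT difference was 0.79 without SID replicate 3, which was not called.

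Each peptide was also set against UT. With limma on all 9 arrays 0 members and 0% of probes were called for SID against UT and for SCR against UT, with unadjusted p under 0.05 for 8 members (12.5% of probes) and 10 members (14.4%). The methods' t-test put 4 and 2 of 57 members at an unadjusted p under 0.05, against 1715 and 1794 of 19460 probes. After adjustment 0 members and 0 probes remained in either comparison. Both comparisons share the UT arrays. On the means 4 members were past a log2 difference of 1 upward for SID against UT (3.78% of probes) and 4 downward (3.13%), and for SCR against UT 4 upward (3.45%) and 5 downward (2.66%). With array weights 6 members were called higher (6.38%) and 6 lower (5.89%) for SID against UT, and 5 higher (5.89%) and 6 lower (4.98%) for SCR against UT. Without SID replicate 3, 5 members rose with SID (4.71% of probes) and 3 fell (5.29%), and without SCR replicate 3, 3 rose with SCR (3.16%) and 3 fell (2.34%). In these fits the remaining arrays of the peptide are all of replicates 1 and 2, so peptide and array set cannot be told apart.

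**Figure D3:**
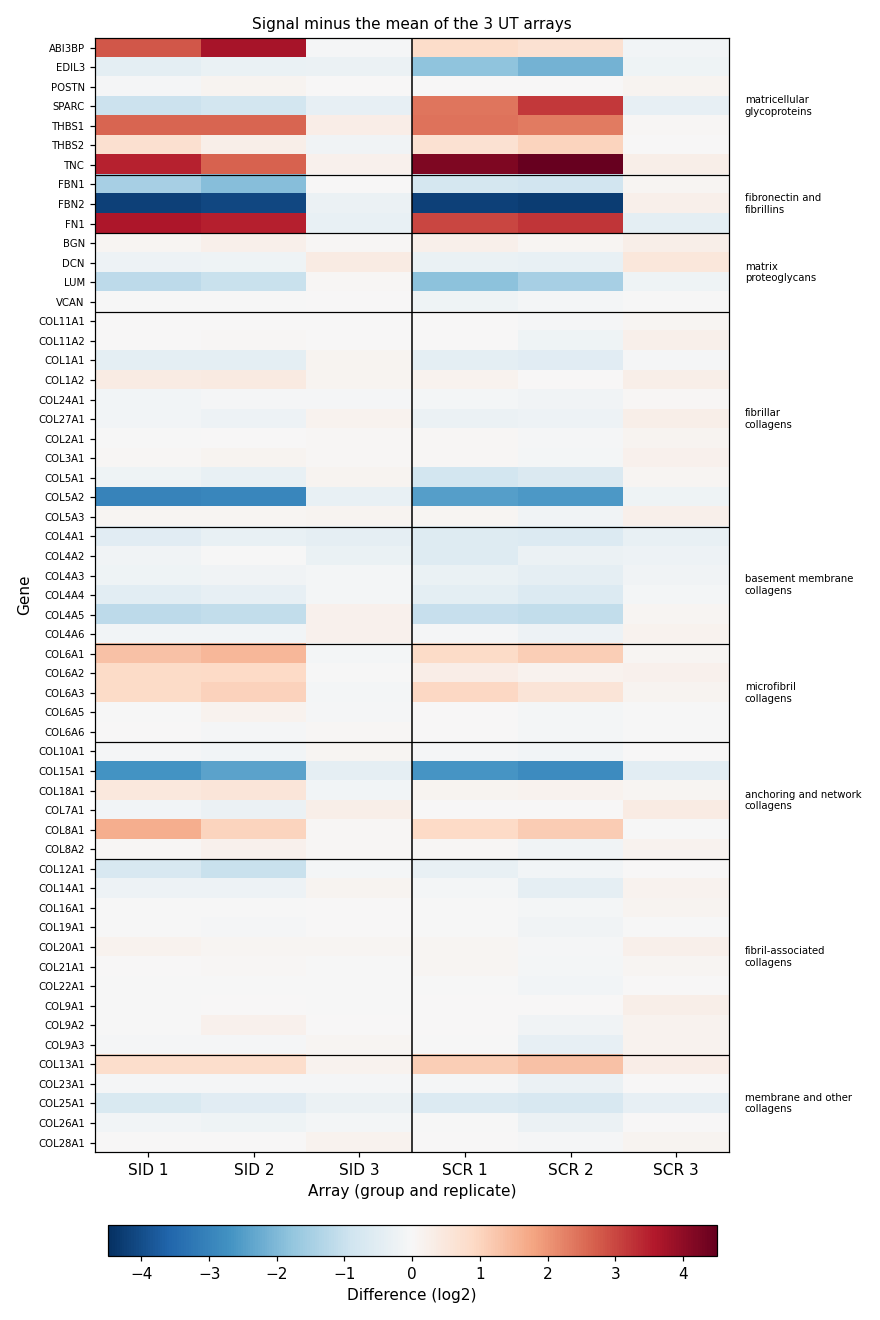
Log2 signal of the 57 members (vertical, by class) on each peptide array minus the mean of the 3 UT arrays, SID arrays left and SCR arrays right, with red above and blue below UT. Strong color lies in replicates 1 and 2 of both peptides, as for TNC, FN1 and THBS1 (red) and FBN2, COL5A2 and COL15A1 (blue), while replicate 3 stays within 0.51 of UT.

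In 0 members did all 3 SID arrays lie above all 3 SCR arrays (4.01% of probes did so) or below them (1.65%), and 0 lay above (1.09%) or below (0.277%) all 6 SCR and UT arrays. Against UT, the 6 peptide arrays together lay above the 3 UT arrays in 1 member, COL13A1 (4.31% of probes), and below them in 6 (5.58%): EDIL3, COL5A2, COL15A1, COL4A1, COL4A4 and COL25A1. For COL13A1 the nearest arrays, SID replicate 3 at 8.09 and UT replicate 2 at 8.05, were almost level. COL25A1, a transmembrane collagen, measured 7.20, 7.36 and 7.61 on SID arrays, 7.25, 7.16 and 7.52 on SCR arrays, and 8.04, 7.79 and 7.81 on UT arrays. COL4A4, a chain of specialised basement membranes, measured 6.80, 6.89 and 7.17 on SID arrays, 6.81, 6.66 and 7.18 on SCR arrays, and 7.27, 7.21 and 7.31 on UT arrays. In both genes replicate 3 came closest to UT, and neither difference passed on all 9 arrays.

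The split between the array sets passed a log2 difference of 1 in 14 members. Measured as the mean of the 4 SID and SCR arrays of replicates 1 and 2 minus the mean of the other 5, it did so upward in 7 members (12.3%, against 6.2% of all probes) and downward in 7 (12.3%, against 4.59%). TNC (3.64), FN1 (3.50), THBS1 (2.43) and ABI3BP (2.05) led upward, followed by COL6A1 (1.19), COL8A1 (1.16) and SPARC (1.11). FBN2 (−4.18), COL5A2 (−2.64) and COL15A1 (−2.47) led downward, followed by LUM (−1.36), FBN1 (−1.28), COL4A5 (−1.16) and EDIL3 (−1.07). In 13 of the 14 all 4 arrays lay on the same side of the range of the other 5, with SPARC the exception. For SPARC, SID replicates 1 and 2 (6.97 and 7.12) lay below that range and SCR replicates 1 and 2 (10.35 and 11.12) above it. For EDIL3 only SCR replicates 1 and 2 (11.36 and 11.04) were far below that range. Its SID replicate 2 (12.88) was almost level with SID replicate 3 (12.89). The map of differences from UT shows the same genes, and on replicate 3 the members farthest from UT were COL15A1 with SID (−0.41) and DCN with SCR (0.51).

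Many members varied little. The range over all 9 arrays was under 0.5 for 24 of 57 members (42.1%, against 41% of all probes), 21 of them collagens, and the median range was 0.59, against 0.61 over all probes. COL22A1 had the smallest range (0.13), with COL6A6 (0.14), COL21A1 (0.17), COL11A1 (0.19) and POSTN (0.21) next. A small range on a dim probe does not separate an absent transcript from a steady one, and the deposited values hold no call of presence.

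The genes that make collagen were read beside the collagens themselves, as a list of hydroxylases, chaperones, export factors and propeptide proteases of which 26 of 27 were measured. SID was the higher peptide on the mean for 22 (55.2% of all probes were higher) and the lower for 4, with a median of 0.18 (0.02 over all tested probes), and 7 had an unadjusted p under 0.05 (7.57% of probes), although 0 were called on all 9 arrays. In replicates 1 and 2 alone 2 rose (1.77% of all probes) and 1 fell (2.64%). P4HA1, a catalytic chain of prolyl 4-hydroxylase, which stabilizes the collagen helix, had signals of 12.08, 12.36 and 11.51 on SID arrays, 11.00, 11.13 and 11.27 on SCR arrays, and 11.26, 11.16 and 11.22 on UT arrays. Every SID array was above every SCR and UT array, and the difference from SCR was 0.85 (SE 0.20, adjusted p = 0.657) and 1.15 in replicates 1 and 2 alone (adjusted p = 0.0212). PLOD1, a lysyl hydroxylase that prepares cross-linking, gave 12.08, 12.23 and 11.79 on SID arrays, 10.93, 11.33 and 11.51 on SCR arrays, and 11.40, 11.54 and 11.55 on UT arrays. Here too the SID arrays lay above all others, by 0.78 over SCR (SE 0.17, adjusted p = 0.657) and by 1.03 in replicates 1 and 2 alone (adjusted p = 0.0319).

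FKBP10, a prolyl isomerase and procollagen chaperone, went the other way, with 7.68, 8.02 and 12.29 on SID arrays, 9.09, 9.64 and 12.34 on SCR arrays, and 12.59, 12.73 and 12.56 on UT arrays. It was low on replicates 1 and 2 of both peptides, and in these alone fell by 1.52 with SID (adjusted p = 0.0297). The split by array set passed 1 downward in 6 of the 26 genes (4.59% of all probes) and upward in 0 (6.2%). Chosen after their values were seen, TLL1, a propeptide protease, differed by −4.77 between the sets and PCOLCE, an enhancer of that cleavage, by −4.52.

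**Figure D4:**
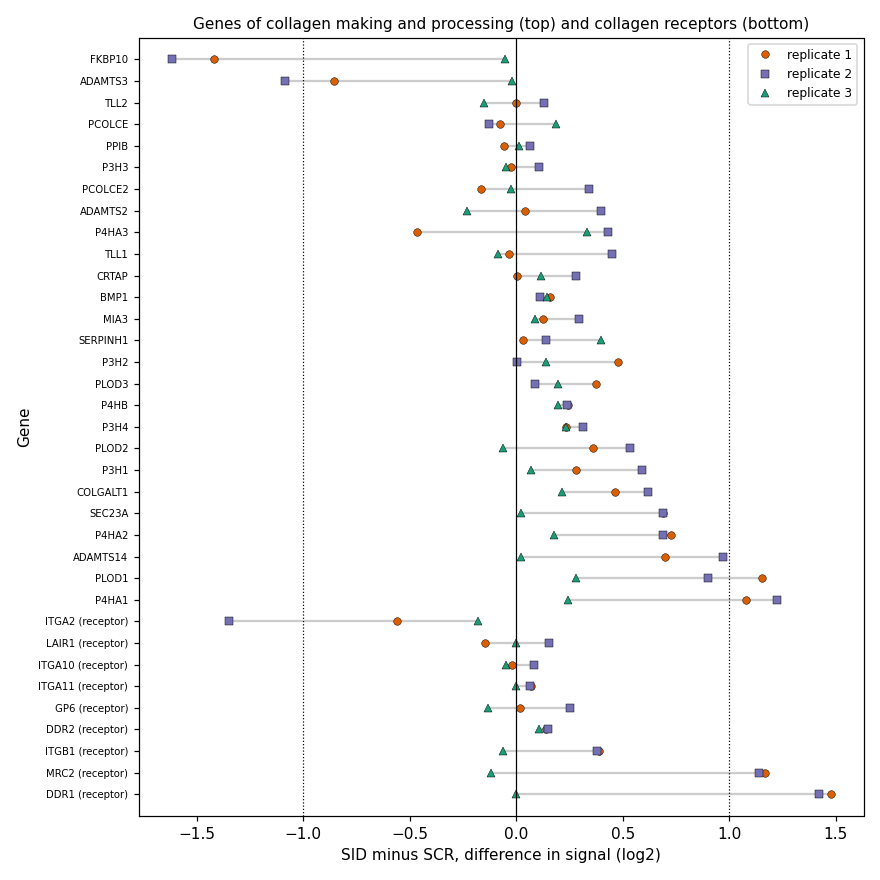
SID minus SCR difference in log2 signal (horizontal) of 26 genes of collagen making and processing (top) and 9 collagen receptors (bottom), with 1 marker per replicate and dotted lines at a difference of 1. P4HA1 and PLOD1 lie right of 0 in all 3 replicates, FKBP10 lies at −1.42 and −1.62 in replicates 1 and 2, and DDR1 lies at 1.48 and 1.42 there and at 0 in replicate 3.

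Of the 10 receptors for collagen listed, 9 were measured, 8 with a higher mean with SID than with SCR (55.2% of all probes). The sizes were small, with a median of 0.05 (0.02 over all tested probes). In replicates 1, 2 and 3 the median receptor differed by 0.07, 0.16 and −0.05. The plot of collagen making genes and receptors shows the pair that rose in replicates 1 and 2 alone (1.77% of all probes), DDR1 and MRC2, and neither was called on all 9 arrays. DDR1, a receptor tyrosine kinase activated by collagen, measured 10.86, 11.41 and 10.42 on SID arrays, 9.38, 9.99 and 10.42 on SCR arrays, and 10.35, 10.42 and 10.50 on UT arrays. It rose with SID by 1.45 in replicates 1 and 2 alone (adjusted p = 0.0455), where SCR lay below UT and SID above it. MRC2, an endocytic receptor that takes up collagen for breakdown, measured 10.02, 10.27 and 8.07 on SID arrays, 8.85, 9.13 and 8.18 on SCR arrays, and 8.33, 8.59 and 8.63 on UT arrays. It rose by 1.15 in replicates 1 and 2 alone (adjusted p = 0.0242). ITGA2, the alpha chain of a collagen-binding integrin, had 12.11, 11.37 and 9.93 on SID arrays, 12.67, 12.71 and 10.11 on SCR arrays, and 10.28, 10.02 and 10.27 on UT arrays, so that SCR was the higher peptide in each replicate and both were far above UT in replicates 1 and 2.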

How the data were processed

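Total RNA of 9 MDA-MB-231 cultures was hybridized to Affymetrix Human Gene 1.0 ST arrays, 1 per sample. The deposited values are log2 signals per transcript cluster that the authors normalized between arrays, with Expression Console, RMA and Transcriptome Analysis Console named without version. The scale was read from the values (3.75 to 14.94, array medians 7.68 to 7.77), and the annotation build is not given in the sources used here. The study's ChipInspector analysis needs values of single probes, so it was not repeated. The methods speak of fewer replicates than the 3 of the labels, and where samples are not independent cultures, p-values measure only the spread between these samples.

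Of 33297 probes, 19460 name 1 gene, 1754 several and 12083 none, and those with 1 gene were tested. Of these 19429 matched RefSeq by Entrez ID. COL17A1 was not analysed here, as no probe names it alone, and 1 probe that names COL1A2 beside another gene was not used. COL11A2 has 3 probes and the other 56 members 1 each. Signals of different probes were compared only in the ranking by highest signal, the choice among a gene's probes and the marker levels. The 9 arrays were fitted together with limma 3.58.1 in R 4.3.3. P-values were adjusted across the tested probes (Benjamini-Hochberg), and calls were limited to adjusted values under 0.05 with at least a doubling, a log2 difference past 1 in either direction. The procedure was tested on simulated data with independent noise on each array, which did not hold the split between array sets.

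Given in full are the 12 members with the largest SID minus SCR difference, the 6 with the largest split by array set, the 5 with the highest signal, SPARC, ABI3BP and the partner chains of named collagens. Of the other lists up to 4 genes with the largest difference are given, and TLL1 and PCOLCE were added after their values were seen. The members and lists were chosen with earlier results of these data known. Same-numbered SID and SCR arrays deviated together from their group means (correlations 0.774, 0.575 and 0.791), which UT did not share (−0.073 to 0.215). Arrays of different number were not compared, and replicates 1 and 2 share an array set, so these values cannot show pairing by number. Differences per replicate and the replicate block took the numbers as pairs, and the main fit did not. Alternatives were a replicate block, replicates 1 and 2 alone, centring on the median, array weights, quantile normalization, a filter on dim probes, the mean of a gene's probes, the 2 compared groups alone, the methods' t-test, the adjusted p alone and leaving out each array. Precision is limited by the number of arrays. Plots were made in matplotlib 3.10.9.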

Additional observations from a re-analysis of the deposited data

How the results depend on the processing

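The counts depended on replicate 3. Members called between SID and SCR numbered 0 on all 9 arrays, 3 with replicates 1 and 2 alone and 3 with array weights, which gave replicate 3 of both peptides the lowest weights, and SPARC, ABI3BP and EDIL3 were the members called in both. The array weight fit called 12 members for SID against UT and 11 for SCR against UT, and 1 convergence warning was given. Leaving out each array in turn gave 0 to 2 members for SID against SCR, 0 to 8 for SID against UT and 0 to 6 for SCR against UT. In the fits with the highest counts the shares of all probes were 0.324% higher and 0.822% lower for SID against SCR. They were 4.71% and 5.29% for SID against UT, and 3.16% and 2.34% for SCR against UT. The replicate block called 0 members, with an adjusted p of 0.526 for SPARC, ABI3BP and EDIL3 (0.597 with all 9 arrays, a fit added after the data were seen), and changed no call.

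The median member difference between SID and UT was −0.0070 and became 0.0368 with quantile normalization, 0.0366 with centring, and −0.0297 to 0.0283 when each array was left out. The SID minus SCR difference of FBN2 was −0.11 on all arrays and reversed to 0.078 with replicates 1 and 2 alone. Reversals when each array was left out were read only for the 19 members named by the rule above, not for all 57. The SID minus SCR difference reversed in 8 of these 19: COL15A1 ran from −0.57 to 0.90, COL5A2 from −1.23 to 0.43, FN1 from −0.85 to 1.64, FBN2 from −1.41 to 1.37, THBS1 from −0.55 to 1.00, COL6A1 from −0.068 to 0.72, COL6A3 from −0.16 to 0.41 and TNC from −2.28 to 0.053. The cause was not tested. Of the single-member values of the same 19 members under the other alternatives, 524 kept direction and side of the threshold and 26 passed it in addition.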

Other observations

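Other glycoproteins of the matrix were read as a list of which 38 of 39 were measured, with a higher mean with SID than with SCR for 27 (55.2% of all tested probes) and a lower one for 11 (median 0.07, against 0.02 over all tested probes). MATN2, matrilin 2, a filament-forming adaptor of the matrix, had log2 signals of 10.82, 11.13 and 7.99 on SID arrays, 8.89, 8.98 and 7.86 on SCR arrays, and 8.16, 8.36 and 8.57 on UT arrays. Only SID replicates 1 and 2 stood out clearly, and in replicates 1 and 2 alone MATN2 rose over SCR by 2.04 (limma adjusted p = 0.016). SRPX, a sushi-repeat protein, had 12.31, 12.70 and 9.75 on SID arrays, 11.02, 11.01 and 9.54 on SCR arrays, and 10.33, 10.48 and 10.41 on UT arrays. SRPX rose by 1.49 in replicates 1 and 2 alone (adjusted p = 0.019), and neither gene was called on all 9 arrays.

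Exact ties run through the deposited values. Of all tested probes 2903 (14.9%) hold the same value on 3 or more of the 9 arrays, and so do 15 of the 57 members. COL22A1 stands at 7.66 on 6 arrays, COL7A1 at 8.67 on 5 and COL19A1 at 6.34 on 5, and the spread within a group of such a member is that of the remaining arrays.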
